A study of Homo sapiens with 24 samples.

Results

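Laminin-332 and the hemidesmosome were described here by 8 genes: LAMA3 and LAMB3 (laminin chains), ITGA6 and ITGB4 (integrin receptor subunits), COL17A1 (a transmembrane collagen), PLEC and DST (plakins) and CD151 (a tetraspanin). A gene was taken when a non-control spot of the arrays carried its symbol, and all 8 were found among 33407 gene names on the first array design and among 36337 on the second. They were measured by 14 probes on the first design, of which 13 were also on the second. LAMB3, ITGB4, COL17A1 and CD151 had 1 probe each, LAMA3, ITGA6 and PLEC had 2 each, and DST had 4. Where a gene had several probes, its brightest probe gave the gene's value, and the other probes are given where a result turns on them.

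The series holds 24 two-colour arrays of established human cancer cell lines, each comparing treated cells (Cy5) with control cells of the same line (Cy3). FaDu and SAS are head and neck squamous cell carcinoma lines, PC3, DU145 and LNCap are prostate cancer lines, and A498 and 786O are renal cell carcinoma lines. On the first design (16 arrays on 2 slides) PC3 and DU145 received genistein, a soy isoflavone, against cells that the labels call untreated and the study's methods describe as given DMSO vehicle, and SAS and FaDu received wogonin, a plant flavone, against DMSO. All other treatments on this design were transfections against a control: si-CAV2 in A498 and 786O, miR-145 in PC3, DU145 and LNCap, miR-375 in FaDu, si-LAMB3 in FaDu and SAS, miR-23b, miR-24 and miR-27b in PC3, and miR-29a in SAS. On the second design (8 arrays on 1 slide) miR-143 and si-GOLM1 were each put into DU145 and PC3 and miR-27b into 786O and A498, each against a control, and 786O was exposed to the chemokine CXCL10 for 12 h and for 24 h against no treatment. A small interfering RNA (si-) lowers the messenger it is named for, and a miRNA represses messengers that pair with its seed. Every line and treatment was on 1 array, no dyes were swapped, and the labels do not say how many cultures were pooled, so a difference on a single array has no replicate check and a dye effect cannot be told apart from a treatment.

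Laminin-332 is a heterotrimer that epithelial cells lay down in the basement membrane, and the alpha 3 chain from LAMA3 and the beta 3 chain from LAMB3 are found in it. Basal epithelial cells hold on to it through integrin alpha 6 beta 4 in hemidesmosomes, where plectin (PLEC) and the epithelial isoform of dystonin (BPAG1e, from DST) link the integrin to keratin filaments, collagen XVII (COL17A1) spans the membrane, and CD151 associates with laminin-binding integrins. Integrin alpha 6 also pairs with beta 1, and prostate luminal cells and kidney tubule cells are not known for typical hemidesmosomes.

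The values have 2 scales. The log2 ratio is the treated over the control signal on an array, and the level is the log2 of the control signal minus the 75th percentile of that channel over all non-control probes, so a level compares lines for the same probe and never one probe with another. The ± after a log2 ratio of a single array is the error given by the scanner software and covers spots and background only, and the ± after a mean level is the SD over control channels of a line. In whole-cell RNA, fewer cells that express a gene and less RNA per cell cannot be told apart. The lines were checked against marker genes: 10 of 10 squamous markers were above background in all FaDu control channels and 9 of 10 in all SAS control channels, 9 of 9 prostate luminal markers in LNCap, and 8 of 8 renal markers in A498 and 7 of 8 in 786O on the first design. The number of prostate luminal markers above background did not tell PC3 and DU145 (5 and 6 of 9) from A498 and 786O (5 and 6 of 9). By summed level (linear, relative to the 75th percentile) PC3 stood apart on this design, at 21.3 to 121. DU145 was at 3.34 to 3.86, A498 at 3.19 and 786O at 3.26. Fibroblast markers were above background for 0 to 2 of 7 genes in the lines. Some control channels stood apart. The controls of miR-23b, miR-24 and miR-27b in PC3 differed from each other by an SD of 0.221 to 0.241 on the log2 scale over genes, against 0.383 to 1.07 for every other pair of the same line and design, so these 3 comparisons may share a control RNA and are not independent of each other. In SAS the control of miR-29a had a summed squamous marker level of 100 (linear, relative to the 75th percentile), against 264 and 385 in the controls of si-LAMB3 and wogonin.

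The 7 miRNAs put into these lines are shown because their seeds set which messengers they can pair with. These are the mature RNAs of the arm most often meant by each name, from RefSeq (GRCh38.p14), with the seed (bases 2 to 8) in capitals; the labels do not name the arm. All 7 seeds were different from each other.
hsa-miR-23b-3p: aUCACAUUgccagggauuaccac
hsa-miR-24-3p: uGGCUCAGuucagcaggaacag
hsa-miR-27b-3p: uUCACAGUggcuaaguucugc
hsa-miR-29a-3p: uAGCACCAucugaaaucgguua
hsa-miR-143-3p: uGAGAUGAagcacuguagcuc
hsa-miR-145-5p: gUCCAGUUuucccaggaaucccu
hsa-miR-375-3p: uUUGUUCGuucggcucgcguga

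Upstream sequence of LAMB3 and LAMA3 is shown because these chains of the same trimer were at unlike levels across the lines. The 250 bases before each start are from RefSeq (GRCh38.p14), with the AP-1 motif TGANTCA in capitals; the motif reads the same on both strands, and its matches did not overlap. It was found in 6.57% of all 35116 windows of this length. Windows were held for 5 of the 8 genes (LAMA3, LAMB3, ITGA6, COL17A1 and DST), and 2 of their 10 windows had a match: 1 of 3 windows of LAMB3 and the 1 window of LAMA3. A match is a run of letters and does not show binding.
LAMB3, chr1:209651375-209651624, minus strand, match starting at -67 relative to the start: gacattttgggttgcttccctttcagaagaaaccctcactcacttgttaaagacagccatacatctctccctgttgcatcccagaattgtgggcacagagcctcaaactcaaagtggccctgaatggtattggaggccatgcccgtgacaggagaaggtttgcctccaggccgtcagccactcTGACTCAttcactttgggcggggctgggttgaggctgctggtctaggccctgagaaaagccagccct
LAMA3, chr18:23872770-23873019, plus strand, matches starting at -125 and -69 relative to the start: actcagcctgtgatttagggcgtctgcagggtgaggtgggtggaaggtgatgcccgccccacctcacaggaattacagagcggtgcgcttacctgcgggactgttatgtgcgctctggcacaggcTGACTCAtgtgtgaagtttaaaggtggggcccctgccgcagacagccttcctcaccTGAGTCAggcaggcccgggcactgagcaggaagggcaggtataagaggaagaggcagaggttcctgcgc

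LAMB3, the gene aimed at by si-LAMB3, was lower on both arrays of that treatment. Its log2 ratio was -2.50 ± 0.31 in FaDu, a 5.67-fold lower signal, and -0.89 ± 0.22 in SAS, a 1.85-fold lower signal. The controls of these arrays had like LAMB3 levels, 5.79 in FaDu and 5.71 in SAS, so the knockdown left a level of 3.29 in FaDu and of 4.84 in SAS. The LAMB3 probe lies at chr1:209788356-209788415 of hg19, on the minus strand. As a mean over both lines LAMB3 did not pass limma's test with the spread between lines shared over the design (mean log2 ratio -1.69, SE 0.90, adjusted p = 0.277). The arrays of miR-145, which share this spread, ranged from -0.16 to 4.21 for LAMB3. With the miR-145 array of LNCap left out, the adjusted p for LAMB3 after si-LAMB3 was 0.0441.

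Of the 8 genes, CD151 and DST fell after si-LAMB3 as a mean over the lines, where 7.52% of all genes tested passed in either direction (limma, adjusted p under 0.05). CD151, a partner of laminin-binding integrins, had log2 ratios of -0.71 ± 0.21 in FaDu and -0.51 ± 0.21 in SAS (mean -0.61, SE 0.15, adjusted p = 0.0439). DST had log2 ratios of -0.45 ± 0.21 and -0.84 ± 0.23 by its brightest probe (mean -0.65, SE 0.15, adjusted p = 0.0405). Both calls were lost when the mean of the other treatments of the design was subtracted (adjusted p = 0.0937 for CD151 and 0.0994 for DST) and when any of the miR-145 or si-CAV2 arrays was left out, with adjusted p from 0.050 to 0.0860 over these fits for CD151 and from 0.0569 to 0.0800 for DST. They were likewise lost with the spread of these 2 arrays alone (adjusted p = 0.230 for CD151 and 0.235 for DST) and without either si-LAMB3 array (0.184 and 0.234 for CD151, 0.0755 and 0.362 for DST). The median over the 8 genes was -0.60, against 0.04 over all 19996 genes tested.

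The laminin alpha 3 chain and the integrin subunits did not pass by their brightest probes. LAMA3 had log2 ratios of -0.82 ± 0.22 in FaDu and -0.35 ± 0.21 in SAS (adjusted p = 0.339, limma). Its second probe, matched to the transcript ENST00000538801, had -1.56 ± 0.38 and -1.21 ± 0.25 (mean -1.38, SE 0.28, adjusted p = 0.0261), at levels of -2.65 and -1.40 in the controls. Both LAMA3 probes were thus below 0 in both lines, and only the second passed. The probes lie 159 kb apart (brightest at chr18:21534735-21534794, second at chr18:21375992-21376051, hg19). They may read different LAMA3 transcripts, which was not checked. ITGB4, which gives hemidesmosomes their integrin, differed widely between the lines: its log2 ratio was -0.05 ± 0.20 in FaDu and -1.94 ± 0.27 in SAS (mean -0.99, adjusted p = 0.218, limma). ITGA6 was at -0.37 ± 0.21 and -0.44 ± 0.21, COL17A1 at -0.20 ± 0.20 and -0.80 ± 0.22, and PLEC at -0.32 ± 0.21 and -0.07 ± 0.20.

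The DST probes differed. The 2 probes for transcript variant 1e, which encodes the hemidesmosomal isoform BPAG1e, had log2 ratios of -0.04 and -0.28 in FaDu but -2.35 and -2.44 in SAS, while the brightest DST probe, for variant 1eA, had -0.45 and -0.84. The probes lie 156 kb apart (variant 1eA at chr6:56323535-56323594, variant 1e at chr6:56479979-56480038, hg19). In SAS the variant 1e probes and ITGB4 were therefore the hemidesmosome probes furthest below 0 after si-LAMB3, and in FaDu they were near 0. The means of the variant 1e probes did not pass (adjusted p = 0.145 and 0.0997, limma). The dimmest DST probe had -2.06 in FaDu with a treated channel not well above background, a signal at least 1.24-fold lower after si-LAMB3, and was below that mark in both channels of SAS. Squamous markers moved with this split: their median log2 ratio was -0.63 in SAS, with KRT15, DSG3 and TP63 lower by over 1, and 0.05 in FaDu, with 0 of 10 lower by over 1. Whether the marker shift has a part in the SAS values was not tested.

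**Figure D1:**
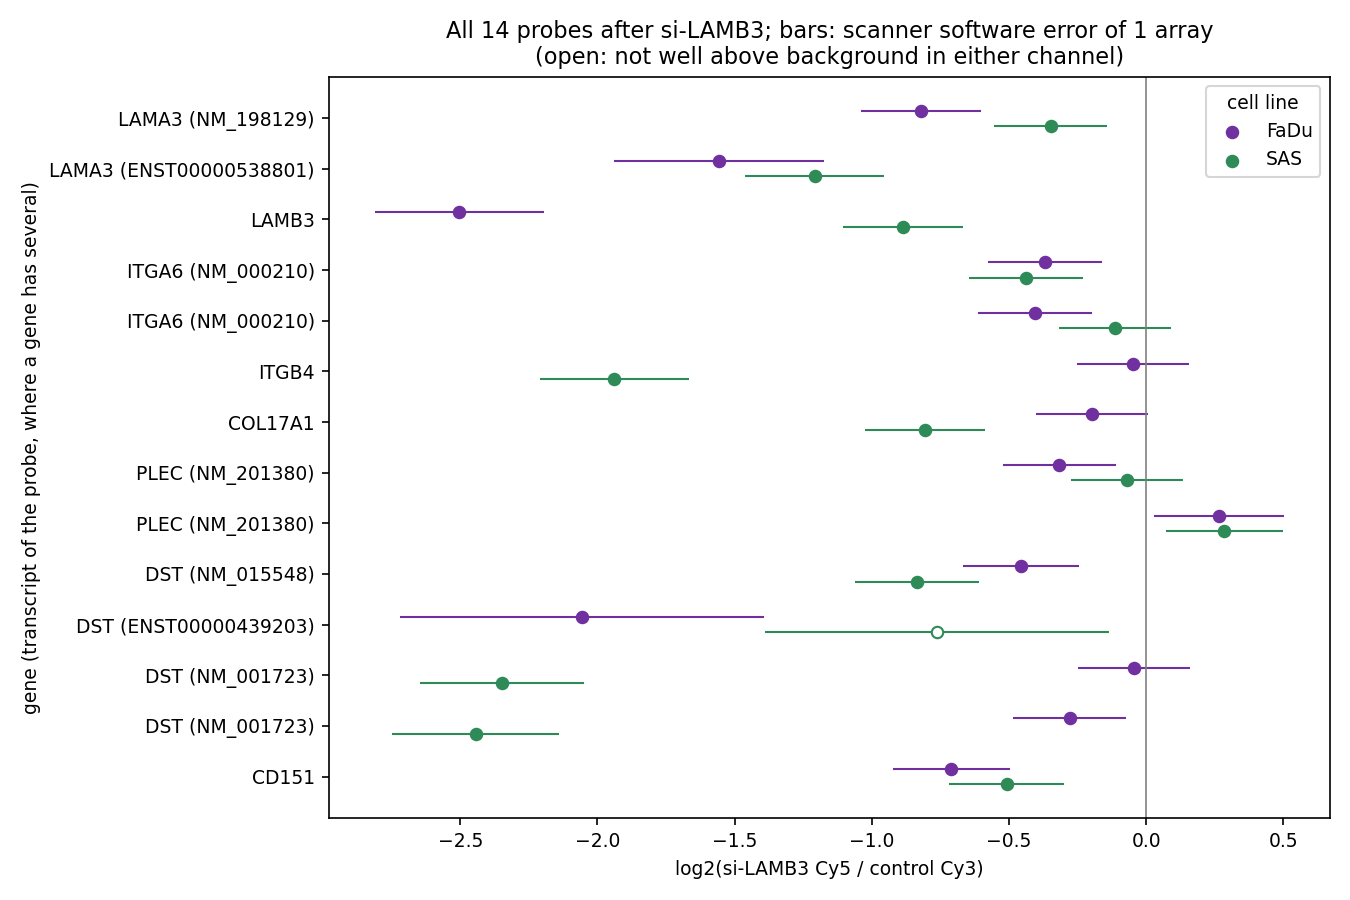
Log2 ratio (si-LAMB3 over control, x axis) of each probe of the 8 genes (y axis) in FaDu and SAS, with bars for the scanner software's error. For DST, NM_015548 is variant 1eA and NM_001723 variant 1e. LAMB3 was lowest in FaDu at -2.50, whereas in SAS the DST variant 1e probes at -2.35 and -2.44 and ITGB4 at -1.94 were lower than LAMB3 at -0.89.

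Among the other genes of these pathways, 20 laminin-332 receptors and basement membrane partners were listed, of which 18 were tested. ITGAV and LAMC1 of this list fell after si-LAMB3 as means over the lines, where 7.52% of all genes tested passed in either direction. ITGAV, an integrin subunit of RGD-binding receptors, had a mean log2 ratio of -1.17 (adjusted p = 0.0411, limma), and LAMC1, the laminin gamma 1 chain, had -1.03 (adjusted p = 0.0295). ITGA3, which pairs with beta 1 to bind laminin-332, had -1.08 and did not pass (adjusted p = 0.0759). The median of that list was -0.36, and the lines differed. In SAS the median was -0.58, with 6 of 18 lower by over 1 (LAMB1, HSPG2, ITGA3, ITGAV, LAMC1 and BCAM) and 1 higher (ITGA2). In FaDu it was -0.01, with 1 of 19 lower by over 1 (ITGAV) and 0 higher. Of 14 other plakins and desmosome plaque genes 0 passed in either direction, and of 7 other tetraspanins tested CD81 fell (-0.88, adjusted p = 0.0251, limma). CD81 was lower by over 1 in SAS but not in FaDu. The calls of ITGAV, LAMC1 and CD81 come from the same fit as those of CD151 and DST, and how they depend on the processing is not given.

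Wogonin in the same lines gave 0 of 8 genes past limma's test (1 at an unadjusted p under 0.05, CD151; background 3.49%). CD151 was at 0.26 ± 0.21 in SAS and 0.50 ± 0.21 in FaDu (mean 0.38, adjusted p = 0.180), and LAMB3 at 0.08 ± 0.20 and -1.0 ± 0.22 (adjusted p = 0.812). The DST variant 1e probes again stood below 0 in SAS, at -1.59 and -1.67, with ITGB4 at -0.91 ± 0.22, while in FaDu they were at -0.54 and -0.73 with ITGB4 at -0.19 ± 0.20. The squamous marker median was -0.35 in SAS and 0.17 in FaDu for wogonin, and its part in these values was not tested.

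In SAS, miR-29a had ITGA6 as its lowest value. The log2 ratio of ITGA6, the shared alpha subunit of alpha 6 beta 4 and alpha 6 beta 1, was -1.62 ± 0.25, and its second probe had -1.16. ITGB4 was at -0.98 ± 0.22, LAMA3 at -0.76 ± 0.22 (its second probe at 0.19 ± 0.24), the DST variant 1e probes at -0.73 and -0.69, LAMB3 at -0.39 ± 0.21, and CD151 at 0.06 ± 0.20. All 10 squamous markers were below 0 on this array (median -0.63), and their part was not tested. The control of this array had a lower ITGB4 level (4.26) than the other SAS controls (6.25 and 6.19), and a lower COL17A1 level (-1.88, against 0.07 and 0.33).

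In FaDu, miR-375 had ITGA6 at 1.03 ± 0.22, and its second probe at 1.17, the highest ITGA6 values of the series. The control of this array had the lowest ITGA6 level of the FaDu controls (1.12, against 1.95 and 2.42), and the treated channel, at 2.17, lay between those 2. LAMA3 was at -0.96 ± 0.22 by its brightest probe but at 0.52 ± 0.31 by its second, so that its direction depends on the probe, and LAMB3 was at -0.75 ± 0.22. The other 5 genes were within 0.5 of 0 by their brightest probes, with the second PLEC probe at 0.83 ± 0.25. Squamous markers had a median of -1.75 on this array, with 6 of 10 lower by over 1; their part was not tested.

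**Figure D2:**
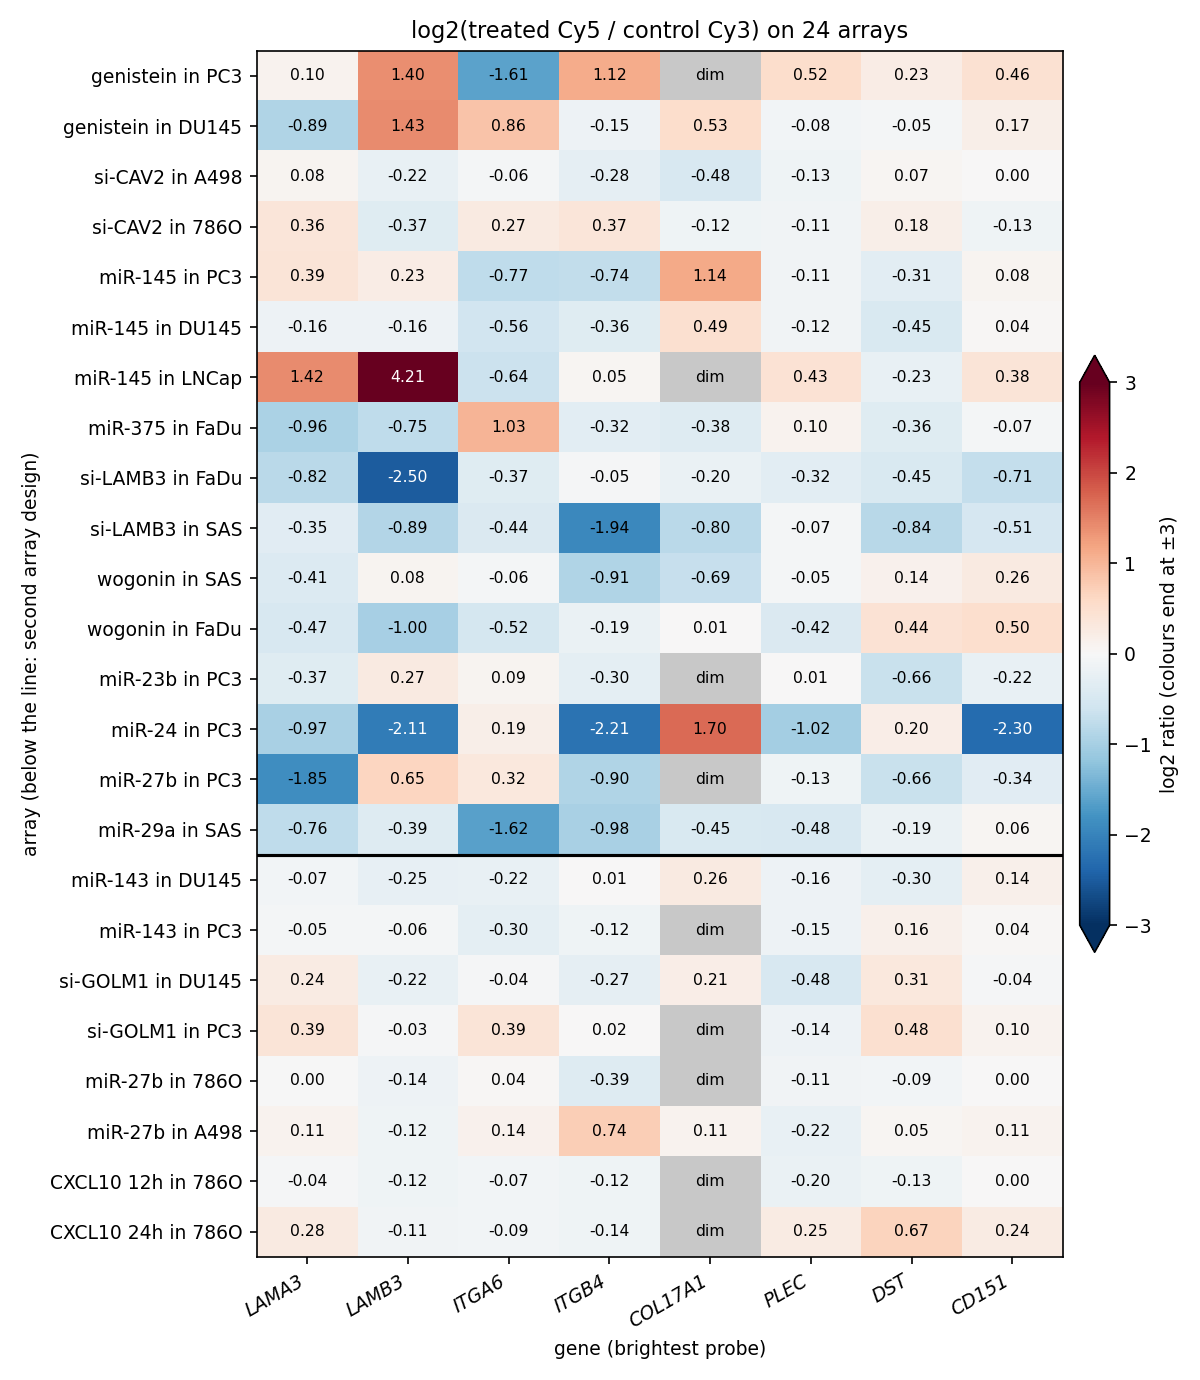
Log2 ratio (treated over control) of the brightest probe of each of the 8 genes (columns) on each of the 24 arrays (rows), red for higher and blue for lower, with grey cells where neither channel was well above background. The strongest colours are LAMB3 at 4.21 after miR-145 in LNCap and at -2.50 after si-LAMB3 in FaDu, and the 8 arrays of the second design, below the line, have no coloured cell past 1.

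Over all arrays, 183 of 192 values of the 8 genes were well above background in at least 1 channel. A log2 ratio under -1 was found for 10 of them and over 1 for 8, where the background over all genes and arrays was 4.05% lower and 5.45% higher. Among the 8, COL17A1 after miR-145 and after miR-24 in PC3 had control channels not well above background, and their signals were at least 1.07-fold and 1.12-fold higher, so that these 2 are not shown to be past 1. All 18 were on the first design, on which 80 of 124 values lay within 0.5 of 0; on the second design 57 of 59 did. LAMB3 gave 6 of the 18, and DST gave none by its brightest probe, whose values lay between -0.84 and 0.44.

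The array with the most members lower by over 1 was that of miR-24 in PC3, with 4 of 8, where 11% of all genes were that low. CD151 had a log2 ratio of -2.30 ± 0.29, ITGB4 of -2.21 ± 0.29, LAMB3 of -2.11 ± 0.28 and PLEC of -1.02 ± 0.22. These are 4.92-fold, 4.63-fold, 4.31-fold and 2.03-fold lower signals. LAMA3 was at -0.97 ± 0.22, and ITGA6 was at 0.19 ± 0.20. The second PLEC probe had -1.27 ± 0.25. DST was at 0.20 ± 0.21 by its brightest probe, but its variant 1e probes had -1.02 ± 0.27 and -0.49 ± 0.29. COL17A1 was at 1.70 ± 0.93 with a control channel not well above background, so that the treated signal was at least 1.12-fold higher. This bound sets the bright channel against the dimmest signal counted as above background after loess and between-channel quantile normalization, and is open to dye bias.

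The PC3 arrays of miR-23b and miR-27b, whose controls were nearly the same as that of miR-24, did not show this set of low values. With miR-23b the 7 genes above background were between -0.66 (DST) and 0.27 (LAMB3) by their brightest probes, with the DST variant 1e probes at 0.40 and 0.32. With miR-27b LAMA3 was at -1.85 ± 0.27, ITGB4 at -0.90 ± 0.22 and LAMB3 at 0.65 ± 0.21. CD151 was at -0.22 ± 0.21 with miR-23b and -0.34 ± 0.21 with miR-27b. The second LAMA3 probe had log2 ratios of -2.33, -2.70 and -3.54 with miR-23b, miR-24 and miR-27b, and its level in these 3 controls was 2.32, 2.37 and 2.41, against -0.08 and 0.43 in the other PC3 controls of the design. The treated channels of these 3 arrays were at -0.03, -0.35 and -1.15, in or below the range of those other controls. The values of the second LAMA3 probe on these arrays thus rest on controls that stood apart, and the reason was not tested.

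miR-27b was also put into the renal lines, where LAMA3 was near 0 on both arrays, with 0.11 ± 0.20 in A498. The arrays are of another design and other lines, and the difference from PC3 was not tested.

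After miR-145, LAMB3 in LNCap had the largest ratio of any of the 8 genes on any array. Its log2 ratio was 4.21 ± 0.45, an 18.6-fold higher signal, starting from a level of -2.05 and reaching 2.17. In PC3 and DU145, whose control levels were 6.07 and 6.53, the ratio was 0.23 ± 0.21 and -0.16 ± 0.20. LAMA3 was also at 1.42 ± 0.24 in LNCap, a 2.67-fold higher signal, and at 0.39 ± 0.21 in PC3 and -0.16 ± 0.20 in DU145. The second LAMA3 probe went the other way in LNCap, at -1.24 ± 0.23, with -0.77 and -0.70 in PC3 and DU145 (mean -0.90, SE 0.23, adjusted p = 0.0504, limma). ITGA6 was the gene with the most even values, -0.77 ± 0.22 in PC3, -0.56 ± 0.21 in DU145 and -0.64 ± 0.21 in LNCap (mean -0.66, SE 0.36, adjusted p = 0.319). Squamous markers were higher on the LNCap array too: 5 of the 7 above background in a channel were higher by over 1 (SFN, KRT14, KRT17, KRT6A and TRIM29), with a median of 2.98. The LNCap control was not well above background for KRT17, KRT6A and TRIM29, so their sizes and the median are uncertain. KRT14 and KRT17, basal keratins, rose as means over the 3 lines (adjusted p = 0.00924 and 0.00126, limma). No size is given, because KRT17 was not well above background in the DU145 and LNCap controls, nor KRT14 in the PC3 controls. The part of the marker shift in the LAMB3 and LAMA3 values was not tested. As means over the 3 lines 0 of the 7 genes tested passed (1, DST, at an unadjusted p under 0.05), beside a background of 6.58%. Of the related genes DSP, the desmosomal plakin desmoplakin, rose after miR-145 (0.91, adjusted p = 0.0265, limma). It was 1 of 12 other plakins and desmosome plaque genes tested. Of 15 receptors and basement membrane partners and of 7 other tetraspanins tested 0 passed, beside the same background of 6.58%.

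Genistein had LAMB3 higher by more than 1 in both prostate lines, at 1.40 ± 0.24 in PC3 and 1.43 ± 0.24 in DU145, that is 2.64-fold and 2.69-fold higher signals. The mean of 1.42 had an SE of 0.90 and an adjusted p of 0.347 (limma), with the same shared spread as above. Squamous markers were mixed. Of 6 above background in a channel in PC3, KRT14, KRT17 and TRIM29 were higher by over 1 and KRT15 and SERPINB5 lower by over 1 (median 1.04). Of 6 in DU145, KRT17 and KRT6A were higher by over 1 and 0 lower (median 0.55). As means over the lines, the median of the 5 squamous markers tested was -0.51. The PC3 control was not well above background for KRT14 and TRIM29, nor the DU145 control for KRT17, so these sizes are uncertain. KRT17 rose as a mean over the lines (adjusted p = 0.0380, limma), with no size given for that reason. The part of the squamous markers in the LAMB3 values was not tested. ITGA6 had opposite signs, at -1.61 ± 0.25 in PC3 and 0.86 ± 0.22 in DU145, and its second probe had -1.53 ± 0.25 and 0.23 ± 0.21. The ITGA6 level in the genistein control of DU145 was 1.12, against 3.09 in the other DU145 control of this design, and the treated channel was at 2.0, between them. ITGB4 was at 1.12 ± 0.23 in PC3 and -0.15 ± 0.20 in DU145, and LAMA3 at 0.10 ± 0.20 and -0.89 ± 0.22. The controls of genistein had the lowest LAMB3 level of each line on this design, 3.92 in PC3 (other PC3 controls 5.48, 5.58, 5.71 and 6.07) and 4.87 in DU145 (the other at 6.53), and the treated channels reached 5.31 and 6.32. The genistein controls were not transfected, being untreated by the labels and DMSO-treated by the study's methods, whereas the other PC3 and DU145 controls were of transfections. Of 7 genes tested 0 passed (0 at an unadjusted p under 0.05), beside a background of 9.5%. The second PLEC probe rose (0.79 and 1.30, mean 1.04, adjusted p = 0.0178, limma), while the brightest had 0.52 and -0.08. LAMA5, the laminin alpha 5 chain, and TSPAN8 fell (mean log2 ratios -0.98 and -2.08, adjusted p = 0.0102 and 0.0443, limma). They were 1 of 20 receptors and basement membrane partners and 1 of 7 other tetraspanins tested. Of 13 other plakins and desmosome plaque genes tested 0 passed, beside the same background of 9.5%.

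None of the 8 genes passed the test after the remaining treatments. Renal lines given si-CAV2 had values between -0.48 (COL17A1 in A498) and 0.37 (ITGB4 in 786O), and 0 of 8 genes passed (0 at an unadjusted p under 0.05), beside a background of 0.13%. On the second design 0 of 7 genes tested passed after miR-143 (0 at an unadjusted p under 0.05; background 0.00509%), after si-GOLM1 (3 unadjusted, LAMA3, PLEC and DST; background 0.126%) and after miR-27b (0 unadjusted; background 0.01%). With si-GOLM1, LAMA3 was at 0.24 ± 0.21 in DU145 and 0.39 ± 0.21 in PC3 (mean 0.32, adjusted p = 0.173, limma), DST at 0.31 ± 0.21 and 0.48 ± 0.21, and PLEC at -0.48 ± 0.21 and -0.14 ± 0.20. In 786O exposed to CXCL10, the genes above background were between -0.20 (PLEC) and 0.00 (CD151) at 12 h and between -0.14 (ITGB4) and 0.67 (DST) at 24 h. No test was possible with 1 array a time. On the 8 arrays of the second design LAMB3 spanned -0.25 to -0.03.

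The control channels gave the level of each gene by line. LAMB3, the beta 3 chain, was at 5.72 ± 0.10 (n = 3) in FaDu, 5.99 ± 0.35 (n = 3) in SAS, 5.35 ± 0.83 (n = 5) in PC3 and 5.70 ± 1.17 (n = 2) in DU145, values that overlap each other. It was at 4.37 in 786O and 4.22 in A498 (n = 1 each), and at -2.05 in LNCap (n = 1). LNCap was lower than the mean of PC3 and DU145 (difference -7.57, SE 0.68, adjusted p = 5.55e-06, limma), and squamous and prostate (PC3, DU145) lines differed by 0.33 (adjusted p = 0.489). On the second design LAMB3 was at 7.34 ± 0.10 (n = 2) in DU145, 6.72 ± 0.33 (n = 2) in PC3, 4.96 in A498 (n = 1) and 3.34 ± 0.33 (n = 3) in 786O.

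**Figure D3:**
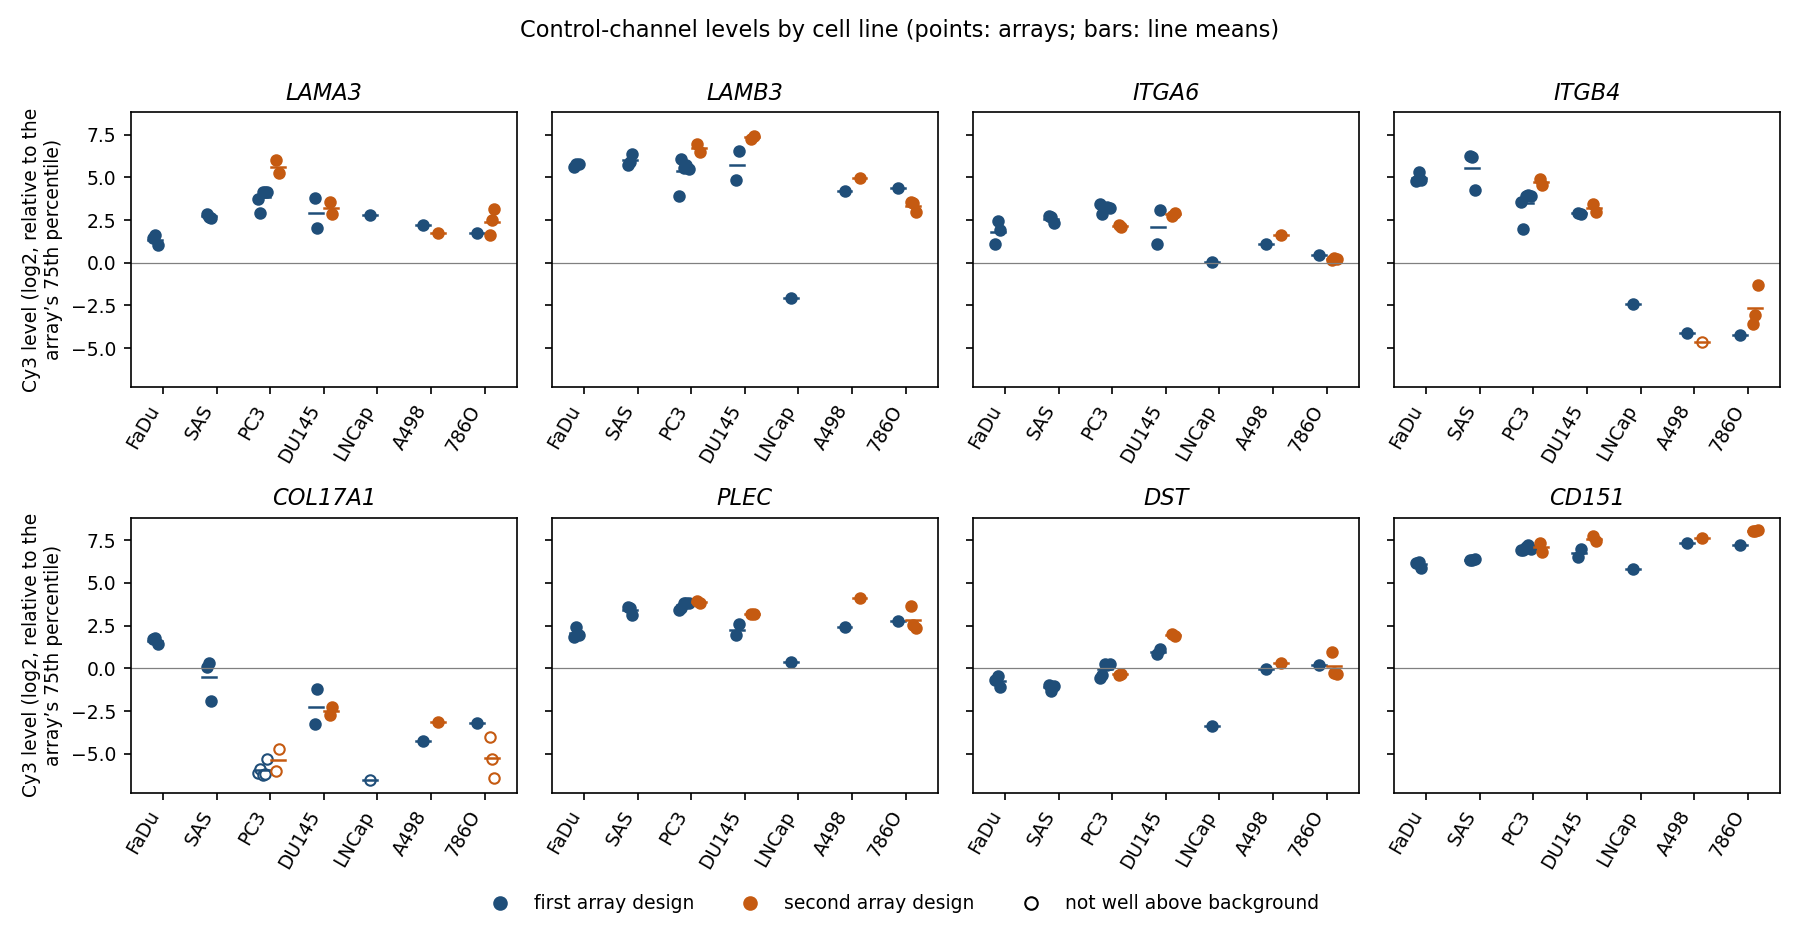
Level in control channels (log2 of the Cy3 signal relative to the array's 75th percentile, y axis) of the 8 genes by cell line (x axis), each point an array and each bar the mean, with open symbols where the signal was not well above background. LNCap was lowest for LAMB3 at -2.05, ITGB4 was lowest in the renal lines at -4.09 and -4.21, and COL17A1 was highest in FaDu; levels compare lines within a gene, not genes.

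LAMA3 did not follow LAMB3. Its level was 3.83 ± 0.53 (n = 5) in PC3, 2.92 ± 1.26 (n = 2) in DU145, 2.79 in LNCap, 2.72 ± 0.11 (n = 3) in SAS, 2.20 in A498, 1.72 in 786O and 1.35 ± 0.31 (n = 3) in FaDu. LNCap thus lay inside the range of the other lines, and its difference from PC3 and DU145 (-0.58, SE 0.57) had an adjusted p of 0.508 (limma). FaDu was lower than SAS (-1.37, SE 0.42, adjusted p = 0.0258) and the squamous lines were lower than the prostate lines (-1.34, SE 0.30, adjusted p = 0.00361). The FaDu and SAS difference was not called with slide as a block (adjusted p = 0.0507) or without any of 5 of the 6 controls, those of miR-375 and wogonin in FaDu and all 3 of SAS (adjusted p from 0.0531 to 0.0901). The renal lines were lower than PC3 and DU145 (-1.41, SE 0.43, adjusted p = 0.0294), a call lost with slide as a block (0.0513), without the genistein control of DU145 (0.0696) and with the 3 near-identical PC3 controls averaged to 1 (0.0686). On the second design PC3 was 2.42 above DU145 (SE 0.56, adjusted p = 0.0297, limma). This was not called without any of the PC3 and DU145 controls or without the CXCL10 12 h control (0.0568). By the second LAMA3 probe that difference was -0.29 (adjusted p = 0.666). On the first design that probe was also lower in squamous than in prostate lines (-3.24, adjusted p = 1.16e-04). Its differences between FaDu and SAS (-1.18, adjusted p = 0.175) and between renal and prostate lines (-1.72, adjusted p = 0.0671) were not called. The PC3 means of that probe there include the controls of miR-23b, miR-24 and miR-27b, which stood apart.

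ITGB4 differed between the lines in level, with a wider range than its partner ITGA6. The FaDu controls were at 4.78, 4.82 and 5.29, the SAS controls at 4.26, 6.19 and 6.25, the DU145 controls at 2.84 and 2.93, and the PC3 controls at 2.0, 3.57, 3.93, 3.94 and 3.98. LNCap was at -2.42, A498 at -4.09 and 786O at -4.21. On this first design the squamous controls were all above those of PC3 and DU145, and LNCap and the renal lines were far below. The levels did not sort by tissue of origin, as LNCap is a prostate line. On the second design, which held no squamous line, the PC3 controls were at 4.57 and 4.92. Squamous lines exceeded PC3 and DU145 by 2.08 (SE 0.41, adjusted p = 0.00143), LNCap was lower than these (-5.60, SE 0.76, adjusted p = 1.63e-04) and so were the renal lines (-7.34, SE 0.58, adjusted p = 2.18e-06; limma throughout). On the second design the renal lines were again lower (-7.61, SE 0.56, adjusted p = 4.27e-04); there the ITGB4 signal in A498 was not well above background, and it was at least 92.9-fold higher in PC3 and 33.0-fold higher in DU145.

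ITGA6 had a narrower range. It was at 3.19 ± 0.22 (n = 5) in PC3, 2.58 ± 0.23 (n = 3) in SAS, 2.10 ± 1.39 (n = 2) in DU145, 1.83 ± 0.66 (n = 3) in FaDu, 1.08 in A498, 0.47 in 786O and 0.06 in LNCap. Unlike ITGB4, it was well above background in all control channels of the renal lines, where it was lower than in PC3 and DU145 on the first design (-1.87, SE 0.44, adjusted p = 0.00786, limma) and on the second (-1.57, SE 0.15, adjusted p = 0.00126). LNCap was lower too (-2.59, SE 0.58, adjusted p = 0.00550).

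COL17A1, the hemidesmosomal collagen, was at 1.63 ± 0.20 (n = 3) in FaDu and -0.50 ± 1.21 (n = 3) in SAS, and was not well above background in any PC3 or LNCap control. FaDu was at least 15.9-fold above PC3 and at least 16.2-fold above LNCap, SAS at least 4.54-fold and 4.66-fold, and DU145, at -2.25 ± 1.44 (n = 2), at least 2.04-fold and 2.09-fold. The squamous lines were above the mean of PC3 and DU145 (adjusted p = 2.83e-06, limma), with no size given because PC3 has only a bound, and FaDu was 2.13 above SAS (SE 0.57, adjusted p = 0.0133). The SAS mean holds the control of miR-29a at -1.88. DU145 against PC3 passed as well (adjusted p = 4.32e-04). LNCap against the mean of PC3 and DU145 passed (adjusted p = 0.0322), but this call was lost with normexp (0.530) and without the miR-145 control of DU145 (0.0591), and with PC3 and LNCap both dim their order is not known.

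Plectin was lowest in LNCap, at 0.36, and highest in PC3, at 3.68 ± 0.19 (n = 5), with SAS at 3.40 ± 0.26 (n = 3), 786O at 2.78, A498 at 2.42, DU145 at 2.25 ± 0.46 (n = 2) and FaDu at 2.07 ± 0.32 (n = 3). FaDu was lower than SAS (-1.32, SE 0.24, adjusted p = 0.00108) and PC3 was 1.43 higher than DU145 (SE 0.25, adjusted p = 7.45e-04, limma). CD151 was at 7.35 in A498, 7.23 in 786O, 7.04 ± 0.12 (n = 5) in PC3, 6.74 ± 0.32 (n = 2) in DU145, 6.37 ± 0.03 (n = 3) in SAS, 6.10 ± 0.17 (n = 3) in FaDu and 5.84 in LNCap, the narrowest range of the 8 genes. It was lower in the squamous lines than in PC3 and DU145 (-0.66, SE 0.13, adjusted p = 0.00126) and lower in LNCap (-1.05, SE 0.24, adjusted p = 0.00582).

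For DST the direction between the squamous lines and PC3 with DU145 depended on the probe. By the variant 1eA probe the squamous lines were lower than PC3 and DU145 (-1.39, SE 0.19, adjusted p = 1.09e-04, limma), with FaDu at -0.74 ± 0.33 (n = 3), SAS at -1.10 ± 0.21 (n = 3), PC3 at -0.04 ± 0.39 (n = 5) and DU145 at 0.98 ± 0.20 (n = 2). By the brighter of the variant 1e probes they were higher by 3.52 (SE 0.49, adjusted p = 1.15e-04), with FaDu at 1.86 ± 0.41, SAS at 1.45 ± 1.42, PC3 at -2.30 ± 0.86 and DU145 at -1.44 ± 0.92. The SAS spread came from the control of miR-29a, at -0.19 against 2.20 and 2.32. Variant 1e was not well above background in LNCap, and FaDu and SAS were at least 13.6-fold and 11-fold above it. The variant 1eA probe was also lowest in LNCap, at -3.38, below PC3 and DU145 (-3.85, SE 0.36, adjusted p = 7.33e-06).

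**Figure D4:**
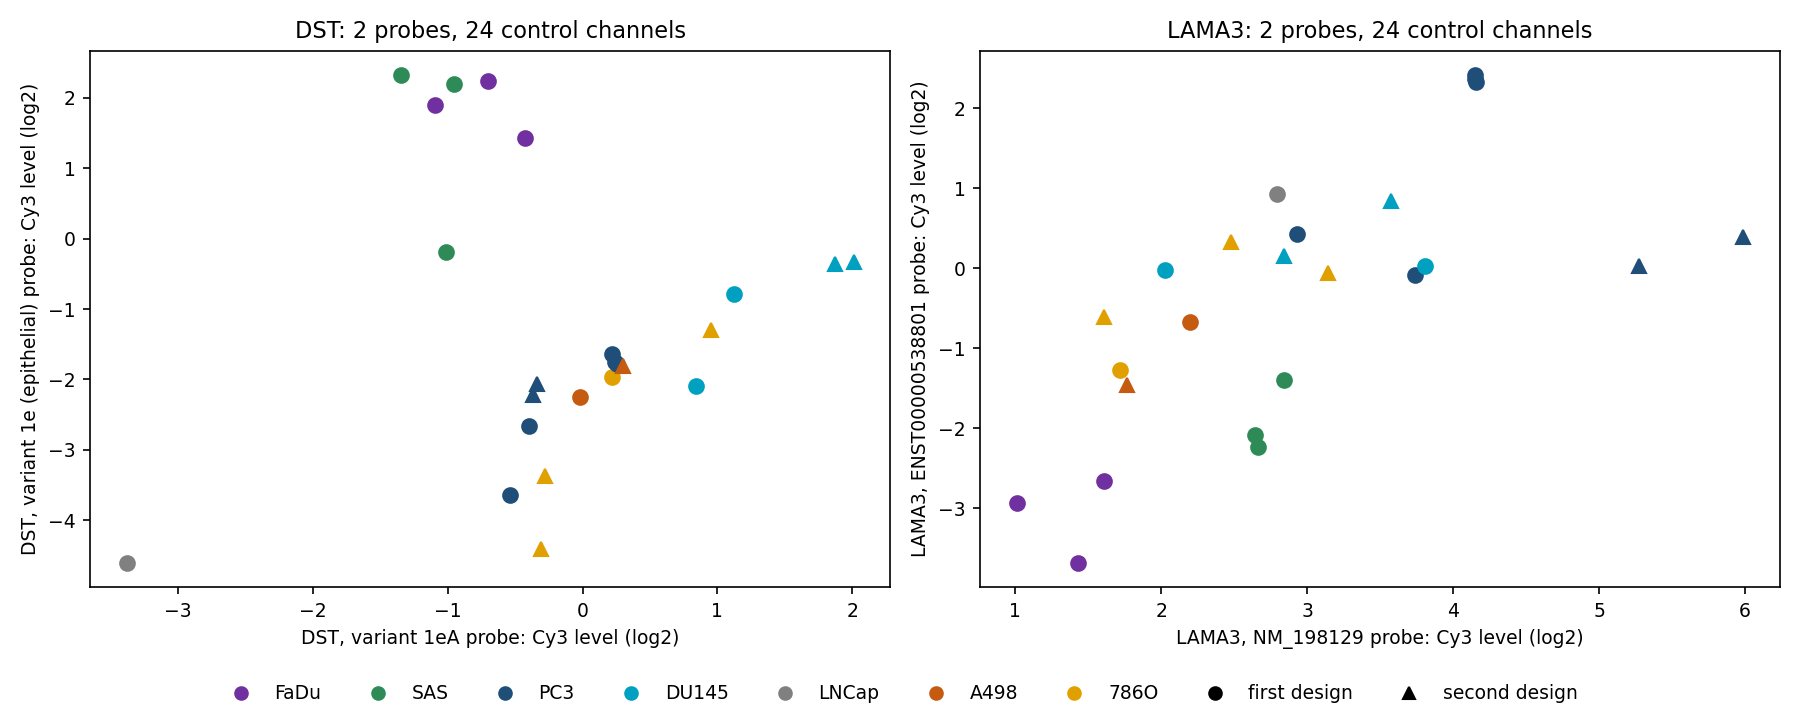
Levels in the 24 control channels (log2, relative to the array's 75th percentile) by 2 probes of the same gene: DST variant 1eA (x axis) against variant 1e (y axis), and the brightest LAMA3 probe (x axis) against its second probe (y axis), coloured by line, with circles for the first array design and triangles for the second. FaDu and SAS stand apart at high variant 1e and low variant 1eA levels, with the control of miR-29a in SAS lower at -0.19, and the PC3 controls of miR-23b, miR-24 and miR-27b stand apart at 2.32 to 2.41 on the second LAMA3 probe.

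By brightest probes, 5 of the 8 genes passed between the squamous lines and PC3 with DU145, where 44.5% of all genes did, with ITGB4 and COL17A1 higher and LAMA3, DST and CD151 lower. In LNCap 7 of 8 passed, all lower, with a background of 27.6%; LAMA3 was the exception, and COL17A1 was too dim there and in PC3 to give a size. LNCap had 1 control channel, which the test takes to vary like those of the other lines. Between the renal lines and PC3 with DU145, 3 passed on the first design (26.1%) and 4 on the second (26.2%), all lower, and LAMA3, ITGA6 and ITGB4 were in both; LAMB3 passed on the second (-2.88, SE 0.23, adjusted p = 5.96e-04, limma). Between FaDu and SAS 3 passed (32%), and between PC3 and DU145 3 passed on the first design (34.9%) and 2 on the second (19.9%), of which DST was lower in PC3 in both (-1.02, SE 0.27, adjusted p = 0.0121 and -2.29, SE 0.45, adjusted p = 0.0178). The DST call was lost without the miR-145 control of DU145 on the first design (0.108), and on the second without any of the PC3 and DU145 controls (0.0905 to 0.105).

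Within slides, every difference called on the first design had the same direction on each slide that held both sides. Only squamous against prostate lines could be read on both slides. FaDu against SAS could be read on slide 2 alone and PC3 against DU145 on slide 1 alone. The arrays are those that gave the calls, so this is not an independent check. For ITGB4, FaDu on slide 1 was 1.94 above PC3 and DU145, and FaDu and SAS on slide 2 were 1.36 above PC3. For LAMA3 these differences were -1.70 and -2.14. LNCap and the renal lines of the first design were on slide 1 alone, where the LAMB3 difference between LNCap and PC3 with DU145 was -7.39.

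The related lists are given beside the share of all genes called in the same comparison. In LNCap (27.6%) 13 of 20 receptors and basement membrane partners were lower than in PC3 and DU145 (median -2.87, against -2.60 for the 8 genes) and 1 was higher (COL7A1, of anchoring fibrils, 1.97, adjusted p = 0.00221, limma); ITGA3 was lower (-6.91, adjusted p = 4.28e-08) and so was ITGB1 (-2.99, adjusted p = 6.29e-04). Of 13 other plakins and desmosome genes tested there, 4 were higher and 2 lower. In the squamous lines (44.5%) 8 of 14 plakins and desmosome genes were higher than in PC3 and DU145 and 1 was lower. DSG3, a desmosomal cadherin, was higher (adjusted p = 8.06e-08, limma), with no size given because it was not well above background in the DU145 controls. Desmoplakin (DSP) was at 1.88 (adjusted p = 2.28e-05, limma). Of 20 receptors and partners 4 were higher, COL7A1 among them at 5.05, and 5 lower, a share near that of all genes. In the renal lines of the first design (26.1%) 9 of 13 plakins and desmosome genes were lower and 0 higher, and 5 of 20 receptors and partners were higher and 1 lower. Of 8 other tetraspanins 3 were higher and 1 lower in the squamous lines, 2 and 2 in LNCap, and 2 and 3 in the renal lines.

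The genes whose mean level over the 7 lines of the first design was most like that of LAMB3 were, by Pearson's r among 15402 genes, a lincRNA interval on the X chromosome (0.985), MYOF (0.984), C14orf169 (0.983), EHBP1L1 (0.983) and FBXL2 (0.982). The 15402 genes were those well above background in all control channels of FaDu and SAS. Each of the 5 named was lowest in LNCap, with MYOF at -3.01 there and between 4.30 and 5.60 in the other lines. LAMB3 was itself lowest in LNCap, so choosing genes by r with it made this likely in advance. The points are lines that share arrays and scaling, and without LNCap the 5 values of r over 6 lines fell to between 0.692 and 0.852. Among the other members r with LAMB3 was 0.83 for PLEC, 0.81 for DST, 0.73 for ITGA6, 0.63 for COL17A1, 0.55 for ITGB4, 0.45 for CD151 and -0.08 for LAMA3. Without LNCap it was 0.14 for PLEC, -0.33 for DST, 0.75 for ITGA6, 0.55 for COL17A1, 0.976 for ITGB4, -0.861 for CD151 and 0.28 for LAMA3. Most of these values thus depended on that line. Without it r fell for PLEC, rose for ITGB4 and changed sign for DST, CD151 and LAMA3.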

How the data were processed

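Total RNA from the cell lines was extracted with Trizol, amplified and labelled with an Agilent two-colour kit, and hybridised with treated RNA in Cy5 and control RNA in Cy3, per the labels. The deposited scanner files were made by the authors with Agilent Feature Extraction 10.7.3.1, whose LogRatio column is the log10 ratio of dye-normalized, background-corrected red over green, and whose processed signals are linear intensity values; both are the authors' deposited values, with probe positions on hg19. The deposited series table held the same log10 ratios (largest difference 0). The members and gene lists were chosen with earlier results of these data known.

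Here LogRatio was multiplied by 3.32193 to give log2 ratios, and spots of a probe were averaged after control spots and outlier flags were left out. Baseline levels were log2 of the Cy3 processed signal minus the array's 75th percentile. A probe was taken as detected when a share of 0.5 or more of its spots passed the software's background flag. A treatment seen in several lines was tested as the mean log2 ratio over lines with limma 3.58.1 (R 4.3.3, lmFit and eBayes), with lines as replicates and the spread shared within an array design (6 residual degrees of freedom in the first). Levels were tested likewise between lines with control channels as replicates (9 and 4 residual degrees of freedom), so p-values measure only the spread between these samples, which may be technical. Probes dim in a comparison were not tested. P-values were adjusted by Benjamini-Hochberg over all probes tested, and 0.05 was the limit; a gene was counted by its brightest probe. Without replicates a log2 ratio past 1 was counted by size. Genes named were the 8 members on every array, list genes past the limit, and the 5 genes most like LAMB3; ITGA3, ITGB1, DSG3, DSP and COL7A1 and the squamous and prostate markers named were chosen for naming after their values were seen. On simulated data the si-LAMB3 test recovered 41% of 100 changes of log2 1 and 76% of log2 2, and the squamous against prostate test 68% and 93%. Arrays have no read depth: 53.2% to 68.9% of probes were well above background in a channel, and the number of arrays limits the precision. Alternatives tried were quantile, loess with Aquantile and normexp (offset 50) normalization, other centrings, other probes, no filter, own spread, slide as a block, and leaving out each array. No genome of the files' build was used, so probes were not placed in exons. PLEC sequence is not reported here. Python 3.11.15, numpy 2.4.6, pandas 2.3.3 and matplotlib 3.10.9 were used.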

Additional observations from a re-analysis of the deposited data

Results flagged for a closer look

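In the PC3 controls of the first design, the LAMB3 level of 3.92 in the control of genistein lay apart from the other 4, the nearest of which was 5.48 (gap over range 0.725, limit 0.71). The ITGB4 level of 2.0 in the control of miR-145 in PC3 likewise lay apart, the nearest being 3.57 (0.794). Chance gives about 1 such value in 20 groups of independent values, and 8 groups were examined. All 8 were of the same PC3 controls, and those of miR-23b, miR-24 and miR-27b may share a control RNA. The stated rate therefore does not hold for these groups. ITGA6 had a log2 ratio of -1.61 after genistein in PC3 and of 0.86 in DU145, a difference of -2.47 that was not tested, with 1 array each. By the second ITGA6 probe the values were -1.53 and 0.23, and the genistein control of DU145 had an ITGA6 level of 1.12 against 3.09 in the other DU145 control of that design.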

How the results depend on the processing

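With 2 genes that passed by brightest probes over the treatments of the first design, both after si-LAMB3, the count was 1 after subtracting the mean of the other treatments, 0 with the treatment's own spread, 1 with DST read by a variant 1e probe, and 0 to 4 when an array was left out (4 without genistein in DU145, 1 without miR-145 in LNCap, and 0 without any si-CAV2 or si-LAMB3 array or the other miR-145 arrays). On the second design the count of 0 became 1 with normexp and loess. With normexp 5 values in place of 8 were higher by over 1. For PC3 against DU145 on the second design the count of 2 became 1 with the mean over probes, 1 with a DST variant 1e probe, 1 without a filter, 4 with quantile, 4 with normexp, 5 with loess and Aquantile, and 0 to 5 when a control channel was left out (0 without any of PC3 or DU145, 1 and 4 without the CXCL10 12 h and 24 h controls, and 5 without that of miR-27b in 786O). LAMB3 after si-LAMB3 ranged from -2.50 to -0.89 when an array was left out. DST in squamous against prostate lines reversed from -1.39 to 0.84 by the mean over probes (adjusted p = 0.0579, limma) and to 3.52 by a variant 1e probe. The causes were not tested. Centring on the median of all probes changed nothing, as that median was 0. No paired analysis was possible because each line and treatment had 1 array and all replicate numbers are 1.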
